A study of Mus musculus with 6 samples.

Results

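The CD45-negative lung cells of WT mice taken on day 40 after silica aspiration were set against the same preparation from untreated WT mice, using 2 of the 6 arrays of the study. The arrays were picked by their labels alone, and no measured value entered the choice. The comparison asks which genes of lung tissue cells differ after silica. The groups were WT day 40 after silica (C57BL/6J, 1 array) and WT untreated, labelled day 0 (C57BL/6J, 1 array). Animals were 7 to 9 weeks old when the experiments began. Lungs were perfused and digested with enzymes, red cells and silica particles were taken out on Percoll, and cells lacking CD45, the antigen carried by nearly all leukocytes, were isolated with magnetic labels. The RNA on each array was a pool of 3 biological replicates, so the data hold no spread between animals and no test of the difference between the groups was possible. No source used here gives the silica dose. The Ccr2KO groups (B6.129S4-Ccr2tm1Ifc/J, untreated and day 40) and the WT day 28 group, 1 array each, are quoted only where they show how a WT difference looks on other arrays.

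Silicosis is a fibrotic lung disease that follows inhaled crystalline silica, which macrophages take up but cannot degrade. Particle-laden macrophages keep releasing inflammatory signals, and fibroblasts respond by laying down collagen-rich nodules. The CD45-negative fraction of the lung holds the cells that build and line the tissue: fibroblasts, smooth muscle, mesothelium, endothelium of blood and lymph vessels, and alveolar and airway epithelium.

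Each array was a one-colour Agilent design. A level is the log2 of a gene's background-subtracted signal minus the 75th percentile of its array, so 0 stands for the signal of a fairly bright probe. A difference is the level at day 40 minus the level in untreated cells. The value after ± combines the errors that the scanning software attached to the signals of the compared spots. For a probe with repeat spots these errors were averaged as if independent, which makes the value smaller for such probes. The value leaves out animals, labelling and hybridisation. Its median over genes above background on both arrays was 0.20, repeat spots of a probe had an SD of 0.19 on each array, and different probes of a gene gave differences with an SD of 0.31 (3894 genes). A total of 16370 genes had a probe well above background on at least 1 of the 2 arrays, 15167 on both, 292 at day 40 only and 911 in untreated cells only. The day 40 array was the dimmer, with 58.1% of probes well above background and a 75th percentile of 878 intensity units, against 64.3% and 1179 in untreated cells. Spike-in controls differed by -0.22 ± 0.06 (SD over 6 probes) where the 75th percentile differed by -0.43. Scaling to the spike-ins would therefore lower every difference by 0.20. The arrays lay on 1 slide, day 40 in row 2 and untreated in row 1, so slide row and day cannot be told apart. Ptprc, which encodes CD45, had a level of 0.29 at day 40 and 1.54 in untreated cells, above background on both. Markers of the tissue cells themselves, such as Cdh5 (endothelium), Sftpc (type 2 epithelium), Col1a1 (fibroblasts), Msln (mesothelium) and Scgb1a1 (club cells), were also well above background on both arrays.

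The median difference over all genes was 0.01. At day 40, 1255 genes (7.67% of 16370) were at least 2-fold higher and 1126 (6.88%) at least 2-fold lower than in untreated cells. Scaled to the spike-ins, 978 were higher and 1598 lower. The 4-fold line was passed by 477 genes (2.91%) upward and 235 (1.44%) downward. Acpp at 1.0002 and Magi3 at -1.001 lay just inside the 2-fold lines. Dchs1 at 0.999 and Axin2 at -0.999 lay just outside. Of the 477 genes, 223 were not well above background in untreated cells. Of the 235, 156 were not at day 40. For a gene that is dim on one side the ratio is given as "at least N-fold", with the dim side set to its own signal or, if higher, to the weakest signal of any probe still called well above background on that array. A dim signal can still lie above that floor, so such a ratio is nominal. Among 383 genes past the 2-fold line that had several probes, all probes had the same sign in 351 and all passed the line in 258.

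**Figure D1:**
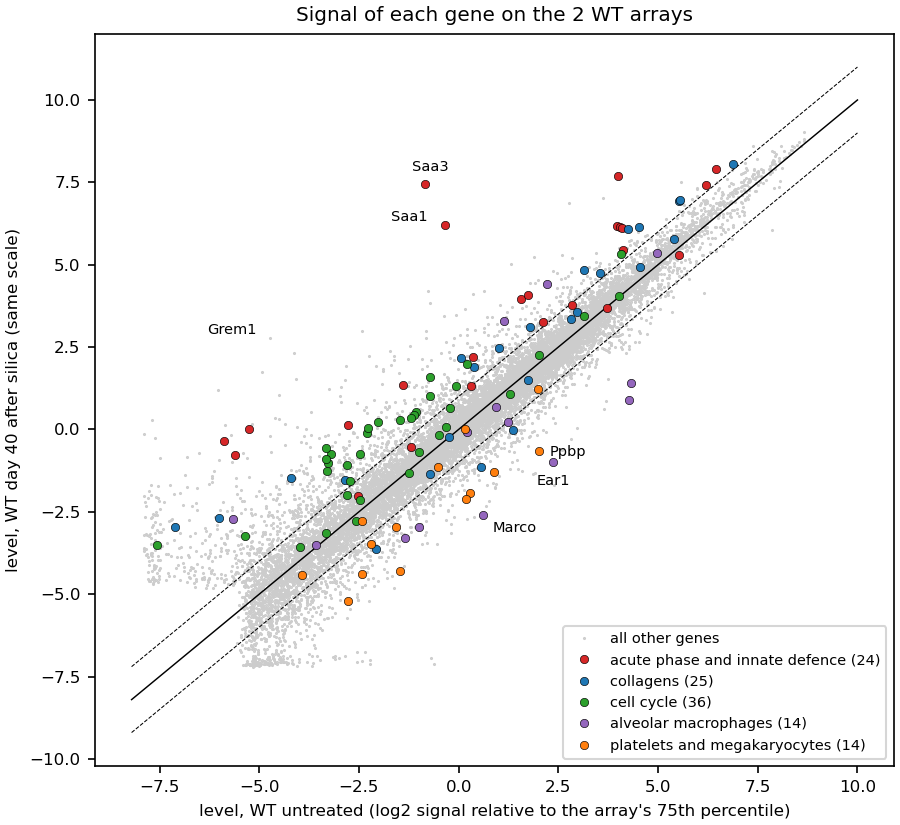
Level of each of 16370 genes in WT day 40 cells (vertical axis) and WT untreated cells (horizontal axis), both as log2 signal relative to the array's 75th percentile; the solid line marks equality, the dashed lines 2-fold. Members of 5 gene lists are coloured, and acute phase genes (red) lie furthest above the line, with Saa3 at 7.45 and -0.85, while platelet genes (orange) lie below it.

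Saa3, an acute phase gene, and Grem1, a BMP antagonist gene, had the largest measured ratios above the untreated level. Saa3, which encodes a serum amyloid A protein made at sites of inflammation, had a level of 7.45 at day 40 and -0.85 in untreated cells, 316-fold higher (8.30 ± 0.20). Grem1, which encodes the BMP antagonist gremlin, stood at 2.76 against -4.73, 180-fold higher (7.49 ± 0.27). Ubd, the ubiquitin-like protein FAT10, stood at 1.20 and was not well above background in untreated cells, at least 110-fold higher. These 3 genes read far apart on the 2 arrays, and Saa3 and Grem1 were above background on all 6.

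Dmbt1, a scavenger receptor secreted by mucosal epithelium, had 1.75 at day 40 and -4.93 in untreated cells (6.68 ± 0.31). Saa1 had 6.20 and -0.34 (6.54 ± 0.20). Chl1, an adhesion molecule of the L1 family, had 2.31 and -4.13 (6.44 ± 0.24). Further down came Csf3, the granulocyte colony-stimulating factor, at least 58.9-fold higher, and Wnt10a, a Wnt ligand, at least 53-fold. Cxcl9, a T cell chemokine, was 49.2-fold higher and Thbs4, a matricellular thrombospondin, 46.8-fold. Glycam1, a mucin-like ligand for L-selectin, was at least 43.9-fold higher, Mmp10, a stromelysin, at least 42.3-fold, Clca1, a goblet cell product, 42.1-fold, and Lbhd2 41.0-fold. Il9, a cytokine of helper T cells and innate lymphoid cells, had -0.27 at day 40 (at least 39.6-fold higher) and was well above background on no other array of the 6. In all, 61 of the 477 genes at least 4-fold higher were above background on the WT day 40 array alone.

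For some of these genes the untreated WT array read lower than the untreated Ccr2KO array. Clca1 stood at -2.42, 2.49 and 2.98 in WT cells on days 0, 28 and 40, against 1.93, 2.68 and 2.25 in Ccr2KO cells. The untreated WT array was the low one, and the other 5 lay within 1.93 to 2.98. Csf3 was not above background in untreated WT cells but stood at -4.03 in untreated Ccr2KO cells. Ubd likewise stood at -2.06 in untreated Ccr2KO cells. Both were still higher at day 40 in Ccr2KO cells, Csf3 by 3.94 and Ubd by 3.34. Saa3 read -0.85 in untreated WT and 1.92 in untreated Ccr2KO cells, where it was higher by 6.28 at day 40. Cxcl9 read -4.08 and -0.17 in the same untreated groups, and was higher by 3.30 in Ccr2KO cells. Lbhd2 read -5.18 and -2.58, Chl1 -4.13 and -1.89, and Dmbt1 -4.93 and -3.10. Grem1, by contrast, read -4.73 and -4.67 in untreated cells of WT and Ccr2KO mice. Mmp10 and Il9, dim on both untreated arrays, read lower in Ccr2KO cells.

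Furthest below the untreated level were genes of lipid handling and of alveolar macrophages. Fabp1, a fatty acid binding protein, had -0.63 in untreated cells and was not well above background at day 40, at least 18.8-fold lower. Cidec, a lipid droplet protein, had -0.69 in untreated cells and was likewise dim at day 40, at least 18.1-fold lower. The cystatin gene Cst8 had -1.70 at day 40 and 2.40 in untreated cells (-4.10 ± 0.21). Both lipid genes were brightest on the untreated WT array among the 6, and Cst8 was lower on all 4 silica arrays than on either untreated array.

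Ribonucleases of the eosinophil-associated family came next, Ear1, Ear2, Rnase2a and Ear10. Ear2 had 0.90 at day 40 and 4.27 in untreated cells (-3.37 ± 0.20). Rnase2a had -0.61 and 2.60, and Ear10 -1.34 and 1.87. All 4 differences lay between -3.38 and -3.21, and since these genes are near-identical copies their probes may share targets. The amino acid transporter Slc7a10 had -1.31 at day 40 and 1.91 in untreated cells (-3.22 ± 0.21), and the scavenger receptor Marco had -2.60 and 0.60 (-3.20 ± 0.22). Klri2, a lectin-like receptor of NK cells, was at least 9.21-fold lower. Colq, the collagen tail of acetylcholinesterase (-3.11), Slc5a12, a monocarboxylate transporter (-3.04), Fam162b (-3.01), Bex2 (-3.01) and Cstdc2 (-2.96) complete the 15 lowest. These last 5 and Slc7a10 also stood below the untreated level on the Ccr2KO arrays, by 2.58 or more, whereas the Ear genes and Marco did not.

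Genes were next read in 53 lists, drawn up by cell type, matrix component, signalling family or stress response. Counts are of members at least 2-fold apart, to be read against 7.67% and 6.88% of all genes, and medians against 0.01. Where whole cell types are concerned, a bulk RNA pool cannot tell fewer cells from less RNA per cell.

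**Figure D2:**
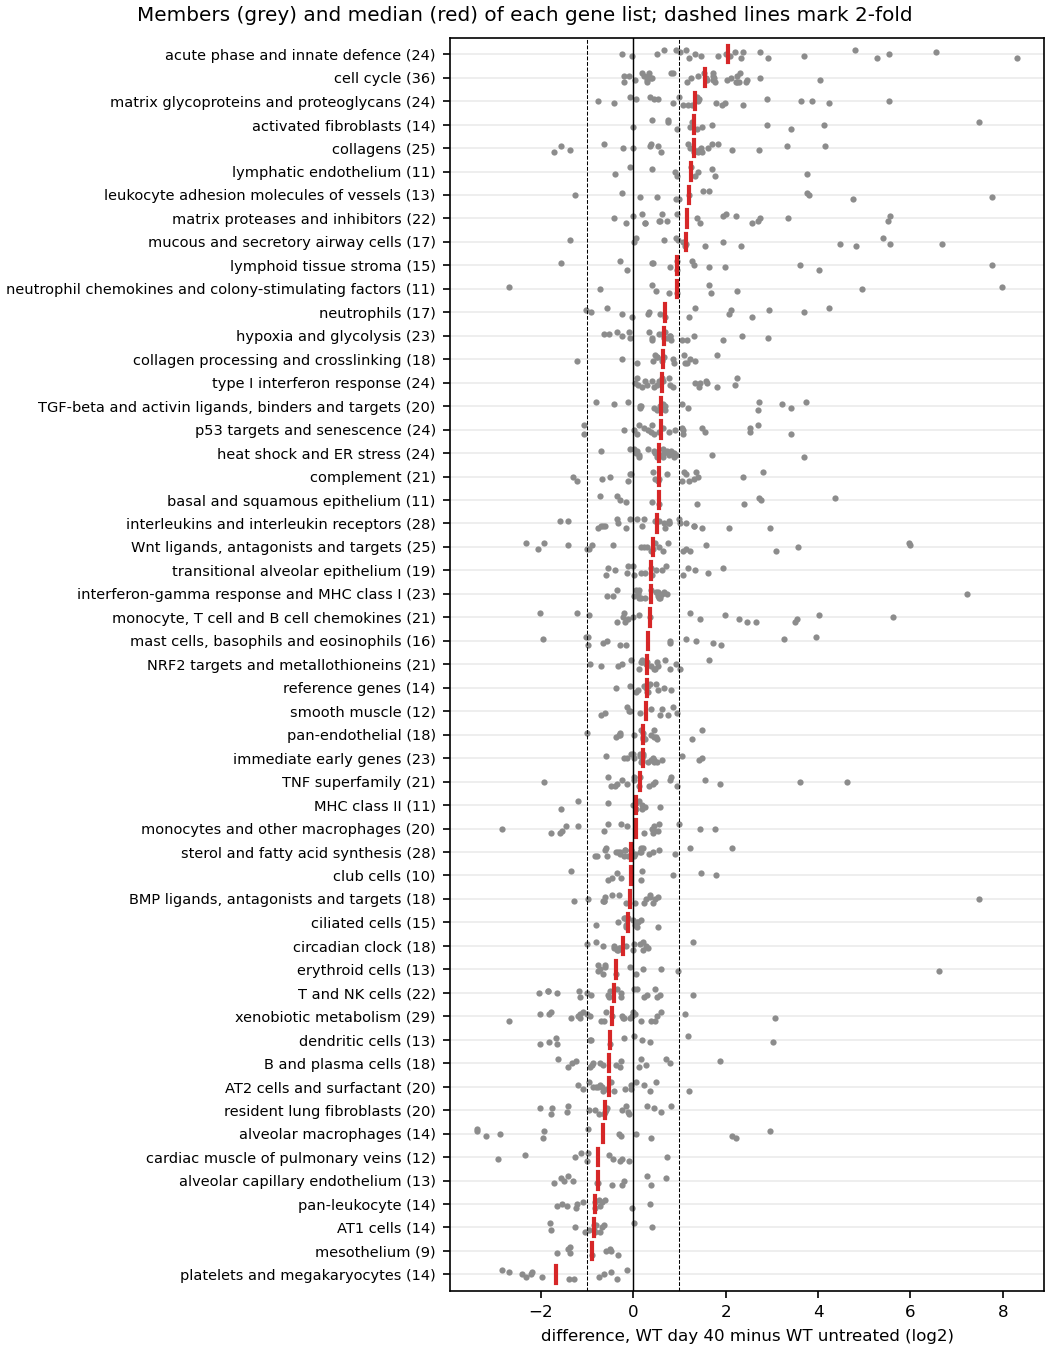
Difference of each measured member (grey points) and the median (red bar) of 53 gene lists, as log2 WT day 40 minus WT untreated, with the number of measured members in brackets and dashed lines at 2-fold. The medians run from 2.05 for acute phase genes at the top to -1.68 for platelet genes at the bottom.

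Interstitial collagens, the rope-forming proteins of scar, were higher at day 40. Col1a1 had 6.92 at day 40 and 5.53 in untreated cells (1.39 ± 0.20), and Col3a1 had 6.97 and 5.55 (1.43 ± 0.20). Col4a1, a basement membrane chain, had 6.14 and 4.53 (1.62 ± 0.06). All 3 differences lay between 1.39 and 1.62. Col5a2 was 4.37-fold higher, Col15a1 6.60-fold, Col11a1 at least 7.49-fold and Col10a1, a cartilage collagen, at least 6.10-fold. Col6a1 differed by 0.37. Of 25 measured collagen genes 15 were 2-fold higher and 3 lower, with a median of 1.31 and a range of -1.71 to 4.15. The 3 lower were Col4a3 (-1.71), Col4a4 (-1.37) and Col17a1 (-1.56), so type IV chains lay on either side of 0.

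Enzymes that fold, trim and crosslink collagen differed less. Serpinh1, the collagen chaperone, stood at 5.14 against 3.91 (1.22 ± 0.20), and the lysyl oxidase Loxl2 at 3.34 against 1.54 (1.81 ± 0.20). Lox (1.17), Plod1 (1.13) and Loxl4 (1.34) were also past 2-fold, Loxl1 (0.52) and Plod2 (0.43) were not, and Pcolce2, an enhancer of procollagen cleavage, was lower (-1.22). In all, 6 of 18 were higher and 1 lower, with a median of 0.64.

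Glycoproteins and proteoglycans of the matrix gave 15 of 24 higher and none lower, with a median of 1.33. Fn1, fibronectin, had 7.50 at day 40 and 5.58 in untreated cells (1.92 ± 0.20). Eln, elastin, had 3.70 and 1.90 (1.80 ± 0.20). Spp1, osteopontin, had 1.94 and -1.70 (3.64 ± 0.21). Among the others Thbs2 was 18.8-fold higher, Cilp 14.6-fold, Tnc (tenascin C) 7.42-fold and Fmod (fibromodulin, a collagen-binding proteoglycan) 5.21-fold.

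Of 22 matrix proteases and inhibitors, 11 were higher and none lower (median 1.16). Timp1, a tissue inhibitor of metalloproteinases, had 5.24 at day 40 and 1.89 in untreated cells (3.35 ± 0.20). Mmp13, a collagenase, was at least 15-fold higher and Mmp2, a gelatinase, 2.71-fold, while Mmp9 differed by 0.58. Adamts4, an aggrecanase, was 6.68-fold higher. In Ccr2KO cells Adamts4 differed by 0.59.

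In the TGF-beta and activin list the ligands of the TGF-beta branch differed little: Tgfb1 by 0.57, Tgfb2 by 0.46 and Tgfb3 by 0.69. Members of the activin branch and 1 latent binder lay further apart. Inhba, the activin A subunit, had 1.73 at day 40 and -1.50 in untreated cells (3.23 ± 0.20), and Inhbb, the activin B subunit, 3.42 and 0.70 (2.72 ± 0.20). Fst, follistatin, which binds activins, had 1.85 and -1.88 (3.73 ± 0.21), so ligand and antagonist were higher together. Ltbp2, a latent TGF-beta binding protein family member, had 7.03 and 3.63 (3.40 ± 0.20), while its relatives Ltbp1, Ltbp3 and Ltbp4 differed by 0.68, 0.58 and -0.43. The list gave 7 of 20 higher and none lower, with a median of 0.61.

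Of 18 BMP genes only Grem1 was 2-fold higher and only Bmp6 lower (2.41 at day 40 and 3.70 in untreated cells, -1.29 ± 0.20), with a median of -0.07. The receptor Acvrl1 differed by -0.99 and Bmpr2 by -0.64, and the target Id1 by 0.53. Wnt genes split: 8 of 25 were higher and 4 lower, with a median of 0.43. Sfrp1, a secreted Wnt antagonist, had 2.77 and -0.81 (3.58 ± 0.20). Frzb, another secreted antagonist, was at least 27-fold higher and Dkk2 8.56-fold. Wnt2, a ligand of alveolar fibroblasts, had -4.06 and -2.63 (-1.42 ± 0.28), and the feedback target Axin2 -1.03 and -0.03. The ligands Wnt10a and Wnt5a (1.08) stood above 0, so ligands lay on either side of it.

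Markers of activated fibroblasts and those of resident fibroblasts differed in opposite directions. Of 14 activated fibroblast genes 9 were higher and none lower (median 1.32). Lrrc15, a surface marker of myofibroblasts, was at least 17.2-fold higher, Cthrc1 2.81-fold, Thy1 3.25-fold and Fap 2.41-fold, and Acta2, smooth muscle actin, had 6.15 at day 40 and 5.21 in untreated cells (0.94 ± 0.06). Of 20 resident fibroblast genes 5 were lower and none higher (median -0.61). Fgfr4 had 0.67 and 2.69 (-2.02 ± 0.20), Inmt, a methyltransferase of alveolar fibroblasts, 6.07 and 7.86 (-1.79 ± 0.20), and Npnt, nephronectin, 0.88 and 2.32 (-1.44 ± 0.20). The lineage factor Tcf21 differed by -0.74 and the growth factor receptor Pdgfra by -0.83.

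Contractile genes of smooth muscle gave 0 of 12 in either direction (median 0.27), with Tagln at 0.76, Cnn1 at -0.08 and Myh11 at -0.70. Cardiac muscle genes, which in mouse lung come from the muscle sleeves of the pulmonary veins, gave 4 of 12 lower and none higher (median -0.75). Myh7 had 0.05 at day 40 and 2.97 in untreated cells (-2.92 ± 0.20), Sln, sarcolipin, -4.71 and -2.36 (-2.35 ± 0.34), and Actc1 2.57 and 3.83 (-1.27 ± 0.20). All 9 measured mesothelial genes lay below 0 and 4 were 2-fold lower (median -0.89), among them Bnc1 (-1.66), Lrrn4 (-1.42), Upk3b (-1.38) and Gpm6a (-1.38), while Msln differed by -0.33.

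Markers of type 1 alveolar cells, the thin cells of gas exchange, were lower or near their untreated level. Of 14 such genes 4 were lower and none higher, with a median of -0.84. Hopx had 3.57 at day 40 and 5.36 in untreated cells (-1.79 ± 0.20), Akap5 2.45 and 4.26 (-1.81 ± 0.20) and Lmo7 2.06 and 3.32 (-1.26 ± 0.20). Ager, the receptor RAGE, differed by -0.84, Aqp5 by -0.82 and Pdpn by 0.40. Pdpn is also made by lymphatic endothelium and activated fibroblasts.

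In the surfactant-making type 2 cells, Sftpc had 9.02 at day 40 and 8.66 in untreated cells, a difference of 0.35 that became 0.00 after quantile normalization. Sftpa1 differed by -0.05, Sftpb by -0.58 and the lipid transporter Abca3 by -0.81. Only S100g (-1.19) and Etv5 (-1.08) of 20 were 2-fold lower, and Chil1 (1.22), a chitinase-like protein, was higher, for a median of -0.53. Genes of the transitional state between type 2 and type 1 cells gave 5 of 19 higher and none lower (median 0.38). Cldn4 was 3.06-fold higher, Ndrg1 3.82-fold, Clu 2.51-fold, Ccn2 2.28-fold and Cdkn1a 2.12-fold. The keratins of that state did not share this: Krt8 differed by 0.02 and Krt7 by -0.55.

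Keratins of basal cells split. Krt5 had 0.37 at day 40 and -2.02 in untreated cells (2.39 ± 0.21), Krt14 -0.97 and -3.72 (2.75 ± 0.22) and Krt17 -1.56 and -4.29 (2.73 ± 0.25). Krt15 differed by -0.35 and Krt13, of squamous cells, by -0.29. Serpinb5, maspin, was at least 9.65-fold higher. The basal cell factor Trp63 had probes that disagreed, at -0.15 and 2.03. In all, 5 of 11 measured members were higher and none lower (median 0.55).

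Mucous and secretory airway genes gave 11 of 17 higher and 1 lower (median 1.15). Itln1, an intelectin of goblet cells, had 0.31 at day 40 and -4.51 in untreated cells (4.82 ± 0.26). The gel-forming mucin Muc5ac had -1.13 and -2.67 (1.54 ± 0.21), Muc5b 3.53 and 2.38 (1.15 ± 0.20), and the folding factor Agr2 -0.34 and -2.29 (1.95 ± 0.21). Tff1, a trefoil peptide, was at least 11.6-fold higher, and the goblet cell factor Spdef differed by 0.68. Ciliated cell genes gave 0 of 15 in either direction (median -0.11, Foxj1 0.54). Club cell genes had a median of -0.05, with Scgb1a1 at 0.16, Upk3a at 1.80 and Gsta3 at -1.36. Gsta3 belongs with xenobiotic metabolism genes, of which 9 of 29 were lower and 2 higher (median -0.46). Cyp4b1 had 4.13 and 6.15 (-2.02 ± 0.20), Cyp1a1 -1.20 and 1.48 (-2.68 ± 0.21) and Fmo1 2.91 and 4.73 (-1.82 ± 0.20), whereas Cyp1b1, expressed in stromal cells, had 2.14 and -0.93 (3.06 ± 0.20).

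General endothelial genes differed little (2 of 18 higher, 1 lower, median 0.21, which became -0.03 after quantile normalization). Cdh5 differed by 0.21, Pecam1 by 0.52 and Kdr by -0.28 (0.30 on its other probe), and Nos3, the endothelial nitric oxide synthase, had 4.32 at day 40 and 2.82 in untreated cells (1.50 ± 0.20). Capillary genes lay lower, with 5 of 13 past 2-fold and none higher (median -0.77): Ednrb, the endothelin B receptor, had 0.71 and 2.43 (-1.72 ± 0.20), Fibin 2.66 and 4.16 (-1.50 ± 0.20) and Tbx2 2.86 and 4.27 (-1.40 ± 0.20). Lymphatic genes lay higher, with 6 of 11 past 2-fold and none lower (median 1.26). Prox1, the factor that specifies lymphatic endothelium, had -2.73 and -4.50 (1.77 ± 0.26), Foxc2 -0.69 and -2.09 (1.40 ± 0.21) and the neuropeptide gene Nts 2.54 and -1.22 (3.76 ± 0.20). Lyve1, also made by macrophages, differed by -0.39.

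Vascular adhesion molecules, with which leukocytes are caught from the blood, gave 7 of 13 higher and 1 lower (median 1.20). Selp, P-selectin, had 3.44 at day 40 and -0.36 in untreated cells (3.80 ± 0.06). Sele, E-selectin, had 0.82 and -2.95 (3.77 ± 0.21). Ackr1, the chemokine-binding receptor of venules, had 1.94 and -2.82 (4.76 ± 0.21). Among integrin ligands Vcam1 differed by 0.92, Icam1 by 0.15, Icam2 by -0.24 and Jam2 by 1.50. Stromal genes of lymphoid tissue gave 7 of 15 higher and 1 lower (median 0.95). Cxcl13, the B cell chemokine, had 1.94 and -2.08 (4.01 ± 0.21), Ccl19, which draws T cells and dendritic cells, 2.99 and 1.01 (1.98 ± 0.20), Il7 -1.83 and -3.13 (1.31 ± 0.22), and Tnfsf11 (RANKL) was at least 12.3-fold higher. Madcam1 probes disagreed, at 1.63 and -0.84, and Chst4, a sulfotransferase of high endothelial venules, was lower (-1.57).

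Acute phase and innate defence genes formed the list with the highest median, 2.05, with 19 of 24 higher and none lower. Lcn2, lipocalin 2, had 7.70 at day 40 and 3.99 in untreated cells (3.70 ± 0.20). Ptx3, a long pentraxin, had 0.14 and -2.77 (2.91 ± 0.21), and Steap4, a metalloreductase, 1.35 and -1.39 (2.74 ± 0.20). The orosomucoids Orm1 and Orm2 were at least 37.8-fold and at least 38.9-fold higher and Saa2 at least 27.7-fold. Orm1 and Orm2, and Saa1 and Saa2, are close copies that probes may not separate. Complement genes gave 9 of 21 higher and 2 lower (median 0.55). Cfb of the alternative pathway had 5.20 and 2.84 (2.37 ± 0.20), Cfi 0.50 and -2.31 (2.81 ± 0.21), C3 8.60 and 7.39 (1.21 ± 0.06) and C4b 7.34 and 5.98 (1.36 ± 0.20), while C1qa, a macrophage product, differed by 0.55.

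Neutrophil chemokines and colony-stimulating factors gave 5 of 11 higher and 1 lower (median 0.95). Cxcl5 had 4.19 at day 40 and -0.76 in untreated cells (4.95 ± 0.20), Cxcl1 4.94 and 3.26 (1.68 ± 0.20) and Cxcl3 -0.98 and -3.21 (2.23 ± 0.22). The other higher members were Csf3, given above, and Il17a, a T cell cytokine, 3.11-fold higher, and the lower member was Ppbp, a platelet chemokine. Of chemokines for monocytes and lymphocytes 10 of 21 were higher and 2 lower (median 0.35). The Ccr2 ligands Ccl2 (4.44 and 1.78, 2.67 ± 0.06) and Ccl7 (3.49 and -0.07, 3.55 ± 0.20) were higher. So were Ccl8 (0.70 and -1.76, 2.45 ± 0.21) and Cxcl10 (4.76 and 2.47, 2.29 ± 0.20). The receptor gene Ccr2 had -1.70 at day 40 and 0.09 in untreated cells (-1.78 ± 0.21), so its RNA and that of Ccl2 and Ccl7 differed in opposite directions. Among interleukins 7 of 28 were higher and 2 lower (median 0.51): Il6 had 5.61 and 4.28 (1.32 ± 0.14), Lif -1.13 and -3.20 (2.07 ± 0.22), Il33 differed by 0.66, Il1b by -0.15 and Il18 by -1.60. In the TNF superfamily (4 of 21 higher, 1 lower, median 0.15) Tnf differed by -0.48, the decoy receptor Tnfrsf11b by 1.88 and Fasl by -1.94, and Tnfsf8 was at least 15.3-fold higher.

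**Figure D3:**
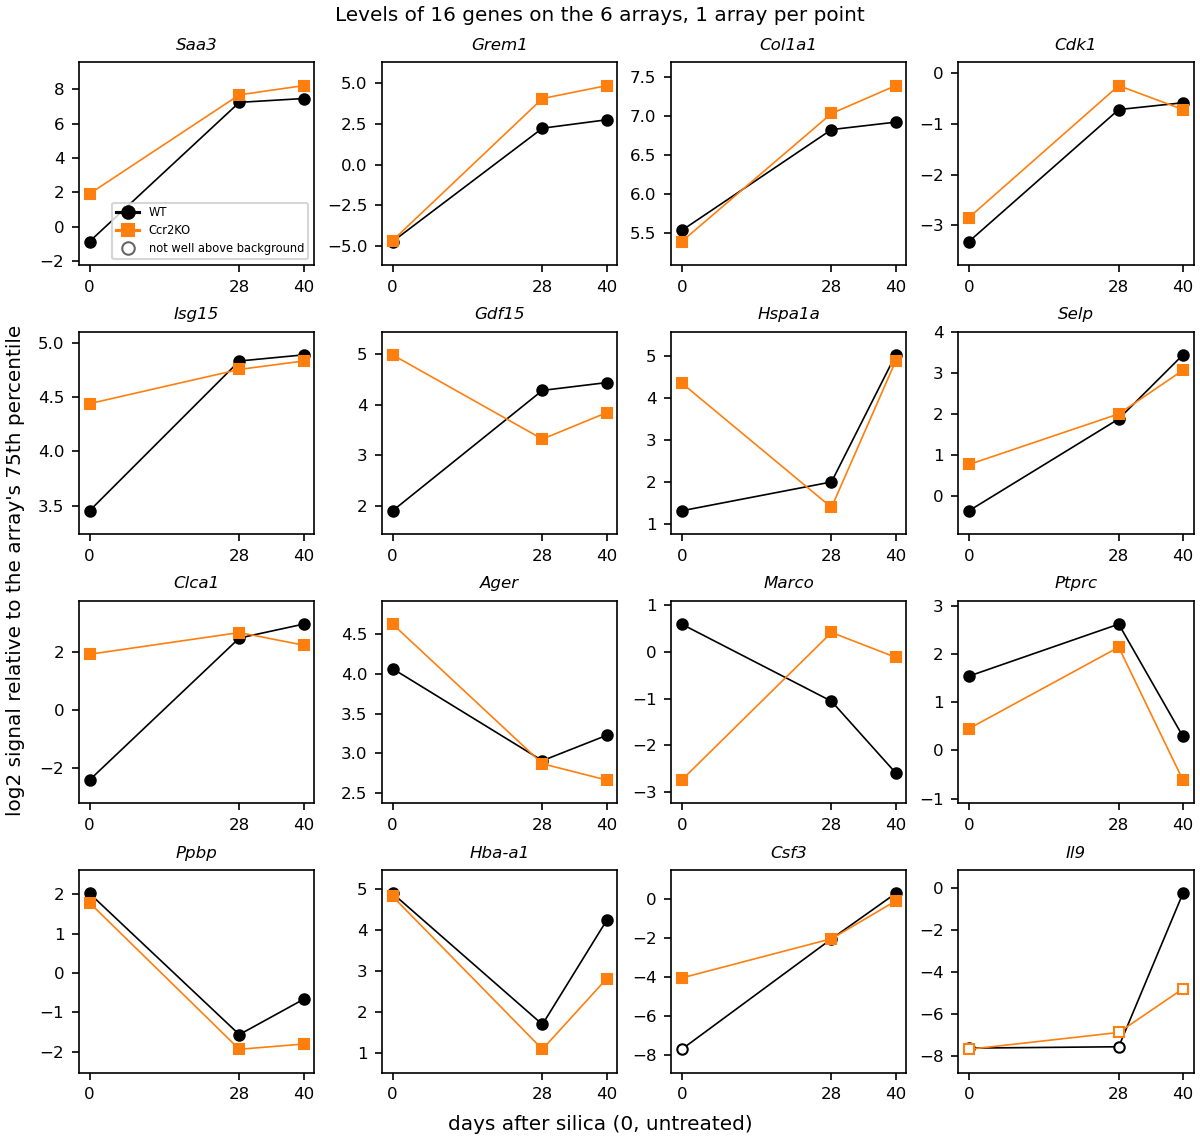
Level of 16 genes on the 6 arrays, as log2 signal relative to the array's 75th percentile, against days after silica for WT (black circles) and Ccr2KO cells (orange squares); open symbols were not well above background and each point is 1 array. Saa3, Grem1, Col1a1 and Cdk1 were higher on all 4 silica arrays, whereas Clca1 was low on the untreated WT array only and Il9 was above background on the WT day 40 array only.

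All 24 measured type I interferon response genes lay above 0, and 8 were 2-fold higher (median 0.63). Isg15, a ubiquitin-like modifier, had 4.89 at day 40 and 3.45 in untreated cells (1.43 ± 0.20). Oas2, an antiviral synthetase, had 3.42 and 1.18 (2.24 ± 0.20), Zbp1, a nucleic acid sensor, 2.10 and -0.10 (2.20 ± 0.20), and Oas1a 3.55 and 1.97 (1.58 ± 0.20). Irf7 (1.59), Rsad2 (1.81) and Ifit1 (0.52) completed the named members. In Ccr2KO cells 2 of the 24 passed 2-fold upward (10.2% of all genes did there) and the median was 0.20, and untreated Ccr2KO cells already had Isg15 at 4.44. Interferon-gamma response and MHC class I genes gave Ubd alone of 23 (median 0.37, H2-K1 0.72, B2m 0.66, Irf1 0.02 and, on its other probe, -0.96), and MHC class II genes gave 0 of 11 higher and 2 lower (median 0.06, Cd74 0.59, Ctss -1.56).

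Promoters of interferon genes hold response elements made of repeated GAAA, so the windows of 250 bases before to 50 after each start (RefSeq, GRCm38.p6) were searched on both strands for a GAAA followed by another GAAA with any 2 bases between them. The repeat was found in 10 of 19 promoters of 18 listed genes (52.6%), against 3.44% of 32851 promoters of all genes. The 10 genes with it had a median difference of 0.69 and the 8 without it 0.57. The 3 windows printed show how the repeats are arranged in genes with different values, and capitals mark the matches or their reverse complement, which overlap each other in Isg15 and Oas1a. A match describes the letters and not a site in use. Isg15 lies on chr4:156200769-156201068 (minus strand), Ifit1 on chr19:34640639-34640938 (plus strand) and Oas1a on chr5:120907476-120907775 (minus strand).
Isg15: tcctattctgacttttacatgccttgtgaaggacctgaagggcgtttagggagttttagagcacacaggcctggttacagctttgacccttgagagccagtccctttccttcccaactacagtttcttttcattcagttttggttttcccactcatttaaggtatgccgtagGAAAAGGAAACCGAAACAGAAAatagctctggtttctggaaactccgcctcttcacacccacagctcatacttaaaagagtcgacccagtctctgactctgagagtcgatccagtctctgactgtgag
Ifit1: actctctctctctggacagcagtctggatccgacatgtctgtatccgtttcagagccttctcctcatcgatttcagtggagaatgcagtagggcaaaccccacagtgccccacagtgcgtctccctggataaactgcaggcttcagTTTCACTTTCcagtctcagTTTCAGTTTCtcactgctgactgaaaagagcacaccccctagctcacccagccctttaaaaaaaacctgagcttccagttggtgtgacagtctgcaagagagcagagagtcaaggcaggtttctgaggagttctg
Oas1a: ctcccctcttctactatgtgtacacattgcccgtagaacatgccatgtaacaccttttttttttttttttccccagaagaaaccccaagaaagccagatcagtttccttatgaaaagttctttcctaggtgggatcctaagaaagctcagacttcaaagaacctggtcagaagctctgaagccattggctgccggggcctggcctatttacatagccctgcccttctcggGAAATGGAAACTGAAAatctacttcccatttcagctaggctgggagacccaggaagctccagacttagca

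Cell cycle genes were higher as a group, with 22 of 36 past 2-fold, none lower and a median of 1.55. Mki67, the proliferation antigen Ki-67, had 1.99 at day 40 and 0.21 in untreated cells (1.78 ± 0.20). Cdk1, the mitotic kinase, had -0.58 and -3.32 (2.74 ± 0.21), and Top2a, the topoisomerase of chromosome condensation, -0.74 and -3.21 (2.47 ± 0.22). Each of these 3 was higher on all 4 silica arrays than on either untreated one. Birc5 (2.30), Ube2c (2.31) and Tpx2 (2.44), which act in mitosis, lay close to them, and the spindle checkpoint kinase Ttk was at least 4.19-fold higher. Several members that act in DNA replication differed less, among them Pcna (0.04), Mcm3 (0.23), Mcm2 (0.38) and Cdt1 (-0.20). Rrm2 (1.57) and Tk1 (1.54), which supply nucleotides, passed 2-fold, whereas the mitotic genes Bub1 (-0.20) and Cenpa (0.34) did not. Which cells were dividing cannot be read from pooled RNA.

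Genes of the G2 and M phases carry a CHR element (TTTGAA) near the start, often below CCAAT boxes. TTTGAA was found on either strand in 13 of 30 cell cycle promoters (43.3%) against 17.9% of all promoters, and CCAAT in 21 of 30 (70.0%) against 37.4%. All 13 promoters with TTTGAA also held CCAAT, and both occurred in 6.95% of all promoters. The 13 genes with TTTGAA had a median difference of 1.76, 10 of them past 2-fold, and the 17 without it 0.41, 7 past 2-fold. This is a description that was not tested, and it was not separated from the phase in which each gene acts. The windows of Cdk1, chr10:69352863-69353162, and Top2a, chr11:99024140-99024439 (both minus strand), are shown because these genes carry several matches of each motif, unlike the 17 promoters without TTTGAA, with capitals marking both motifs on either strand.
Cdk1: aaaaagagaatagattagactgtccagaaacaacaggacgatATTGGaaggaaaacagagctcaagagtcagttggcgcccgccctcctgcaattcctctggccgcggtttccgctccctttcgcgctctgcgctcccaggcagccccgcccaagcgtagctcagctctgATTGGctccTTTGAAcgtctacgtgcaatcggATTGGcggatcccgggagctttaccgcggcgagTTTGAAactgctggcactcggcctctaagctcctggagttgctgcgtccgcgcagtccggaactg
Top2a: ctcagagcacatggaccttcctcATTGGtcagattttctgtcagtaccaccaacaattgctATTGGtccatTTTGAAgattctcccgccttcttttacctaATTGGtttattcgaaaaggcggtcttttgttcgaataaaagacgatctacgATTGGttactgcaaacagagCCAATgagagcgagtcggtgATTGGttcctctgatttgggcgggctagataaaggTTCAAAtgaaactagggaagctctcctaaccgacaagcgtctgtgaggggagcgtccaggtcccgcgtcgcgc

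For the acute phase list the NF-kappaB-like word of GGGA and TTCC with any 2 bases between was found in 1 of 20 promoters (5%), against 1.47% of all promoters, searched on both strands. Its absence from a window says only that these letters are not there.

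Among p53 targets and senescence genes 9 of 24 were higher and 2 lower (median 0.61). Gdf15, a stress-induced cytokine, had 4.44 at day 40 and 1.90 in untreated cells (2.53 ± 0.20). Cdkn1a, the cell cycle inhibitor p21, had 4.08 and 2.99 (1.08 ± 0.06), and its other probe differed by 3.57. Cdkn2a, the locus of p16 and p19ARF, had -0.10 and -2.62 (2.52 ± 0.21), Phlda3 5.51 and 4.02 (1.49 ± 0.20) and the death receptor Tnfrsf10b 2.55 and 0.99 (1.56 ± 0.20). Mdm2 differed by 0.32. In Ccr2KO cells the list had a median of -0.16 and 1 of 24 passed 2-fold upward, Gdf15 differed by -1.14 and Cdkn2a by 3.01. Untreated Ccr2KO cells had Gdf15 at 4.98, above every WT array.

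Heat shock and ER stress genes had a median of 0.56 with 2 of 24 past 2-fold, both of them cytosolic chaperones. Hspa1a had 5.02 at day 40 and 1.32 in untreated cells (3.71 ± 0.20), and Hsph1 3.36 and 1.66 (1.70 ± 0.20). Hspa1a stood at 2.004 in WT day 28 cells and at 4.36, 1.40 and 4.88 in Ccr2KO cells on days 0, 28 and 40, so its levels did not order by silica across the 6 arrays. Immediate early genes, which tissue digestion can induce, gave 3 of 23 higher (median 0.20): Fos differed by 0.31, Jun by 0.19 and Egr1 by -0.20, and Fosl1 (1.48), Myc (1.43) and Fosl2 (1.05) passed 2-fold. Hypoxia and glycolysis genes gave 6 of 23 higher (median 0.67), led by Ankrd37 (2.91), Egln3 (2.36) and Ndrg1 (1.93), while Vegfa had 4.43 and 5.07 (-0.64 ± 0.14). NRF2 targets gave 2 of 21 higher (median 0.30), Akr1b8 at 1.64 and the metallothionein Mt2 at 1.01, with Nqo1 at 0.46. Sterol and fatty acid genes (2 of 28, median -0.05) and clock genes (1 higher and 1 lower of 18, median -0.23) lay near 0, apart from Fabp4 (2.14), Elovl6 (1.24), Bhlhe40 (1.29) and Hlf (-1.01). The 14 reference genes had a median of 0.30 and none passed 2-fold, with Gapdh at 0.81, Actb at 0.29 and Hprt at 0.11.

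Leukocyte lists differed in direction at day 40. Of 14 pan-leukocyte genes 6 were 2-fold lower and none higher (median -0.83), Ptprc by -1.25 ± 0.20, Laptm5 by -1.65 and Itgb2 by -1.53, and their mean level was 1.51 at day 40 and 2.38 in untreated cells. How far this moved the leukocyte lists was not tested. At WT day 28, against the same untreated array, the pan-leukocyte median was 1.12, opposite in sign to day 40. B and plasma cell genes had 1.40 there, T and NK cell genes 1.06, dendritic cell genes 1.57 and alveolar macrophage genes 0.27, all with negative medians at day 40. Monocyte and other macrophage genes had 1.18 and neutrophil genes 3.17. With 1 array per day this was not tested. At day 40, of 20 genes of monocytes and other macrophages 6 were lower and 2 higher (median 0.06, which became -0.11 after quantile normalization). Cx3cr1 had -1.25 and 1.60 (-2.85 ± 0.21), Csf1r 3.23 and 4.79 (-1.55 ± 0.20) and the surface receptor Adgre1 -1.25 and 0.20 (-1.45 ± 0.21), while Cd14 (1.45) and Gpnmb (1.77) were higher.

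Alveolar macrophage genes split, with 6 of 14 lower and 3 higher (median -0.65). Besides the Ear genes and Marco, Chil3 had 1.42 at day 40 and 4.32 in untreated cells (-2.90 ± 0.20) and Siglecf -2.95 and -0.99 (-1.96 ± 0.22). Fabp4 (4.42-fold), Ctsk (4.66-fold) and Il1rn (at least 7.28-fold) were higher, and these 3 are also expressed by endothelium, fibroblasts or epithelium. In Ccr2KO cells the list had a median of 1.26, with 7 of 14 higher and none lower (5.94% of all genes were lower there).

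B and plasma cell genes gave 4 of 18 lower and 1 higher (median -0.52, or -0.34 with dim members at their bound). Cd79b had 1.04 and 2.66 (-1.62 ± 0.20) and Ms4a1 0.16 and 1.48 (-1.32 ± 0.20), whereas Jchain, of antibody-secreting cells, had 3.87 and 1.99 (1.88 ± 0.20). T and NK cell genes gave 7 of 22 lower and 1 higher (median -0.43). Among genes of NK and cytotoxic T cells Klrb1c (-2.05), Gzma (-1.85), Ncr1 (-1.85), Eomes (-1.66) and Cd8a (-1.01) were lower, whereas Gzmb (0.01), Nkg7 (-0.52) and Prf1 (-0.56) did not pass 2-fold. The pan-T gene Cd2 was lower (-1.16), while Cd3e differed by 0.22, the other Cd8a probe by 0.04, and Ctla4, an inhibitory receptor, was 2.47-fold higher. Dendritic cell genes gave 4 of 13 lower and 2 higher (median -0.51, or -0.20 with dim members at their bound), Itgax at -1.66 and Clec9a at -1.82 against Fscn1 at 3.03.

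Neutrophil genes had a median of 0.69 with 8 of 17 higher and 1 lower, but the defining cytosolic pair was not among them: S100a8 had 3.69 at day 40 and 3.71 in untreated cells and S100a9 5.29 and 5.52. Cd177 (18.8-fold), Lcn2 (13-fold), Mpo (7.70-fold) and Mmp8 (5.95-fold) were higher, and Lcn2 is made by epithelium as well. Mast cell, basophil and eosinophil genes gave 6 of 16 higher and 2 lower, with a median of 0.32 that became -0.22 when members had to be above background on both arrays. Cpa3, a mast cell protease, had -0.86 and -2.76 (1.90 ± 0.21), Cma1 -2.50 and -4.23 (1.72 ± 0.26) and Tpsb2 0.36 and -0.997 (1.36 ± 0.20), and Prg2, the eosinophil major basic protein, was at least 9.60-fold higher. The 2 lower members were Siglecf (-1.96) and Kit (-1.03), and Ccr3 (-0.99) and Il5ra (-0.99) lay just short of the line. Markers of these cells thus went both ways.

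Platelet and megakaryocyte genes formed the list with the lowest median, -1.68, with all 14 below 0 and 9 past 2-fold. Gp1ba had -4.29 at day 40 and -1.46 in untreated cells (-2.83 ± 0.29), Ppbp -0.67 and 2.02 (-2.69 ± 0.20), Clec1b -2.12 and 0.20 (-2.32 ± 0.21) and Gp9 -1.93 and 0.28 (-2.22 ± 0.21). Pf4, which macrophages also express, differed by -0.74. In Ccr2KO cells 11 of the 14 were lower (median -1.56). Globins were lower by less: Hba-a1 had 4.23 and 4.89 (-0.66 ± 0.20) and Hbb-bt 3.65 and 4.40 (-0.76 ± 0.20), and globin copies may share probes. Of 13 erythroid genes none was 2-fold lower and 1 was higher, with a median of -0.37.

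Ccr2KO cells gave a second look at the same interval, with no array shared between the contrasts. Over 16009 genes measured in both, Pearson's r between the WT and Ccr2KO differences was 0.72 across genes, which are not independent replicates and share slide and platform. Of these genes 1168 were 2-fold higher in WT and 1299 in Ccr2KO, 788 in both (67.5% of the WT and 60.7% of the Ccr2KO genes). On the lower side there were 955 in WT, 926 in Ccr2KO and 507 in both (53.1% and 54.8%). Only 13 genes were 2-fold higher in WT and lower in Ccr2KO, and 44 were lower in WT and higher in Ccr2KO. AT1 genes had a median of -0.84 in WT and -1.71 in Ccr2KO cells, basal epithelium 0.55 and 1.77, and erythroid genes -0.37 and -1.70. With 1 array per group, no difference between the genotypes was tested.

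**Figure D4:**
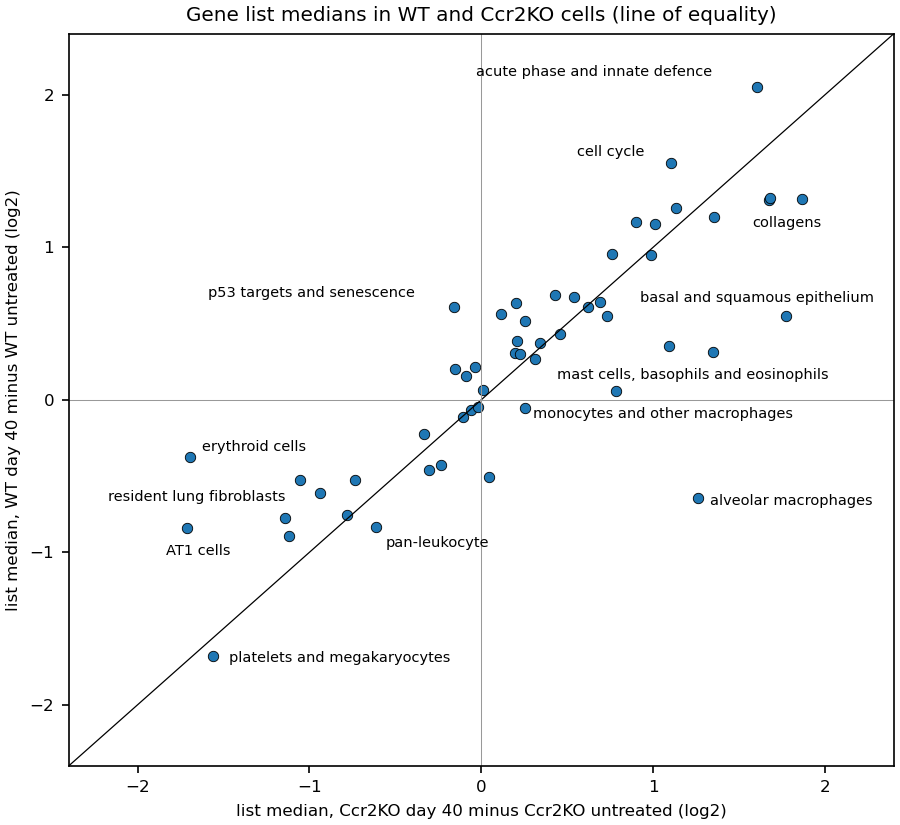
Median difference of each of 53 gene lists in WT cells (vertical axis, log2 day 40 minus untreated) and in Ccr2KO cells (horizontal axis, same unit); the diagonal marks equality. Most lists lie near the diagonal, and alveolar macrophage genes stand off it, at -0.65 in WT and 1.26 in Ccr2KO cells.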

How the data were processed

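Per the labels' protocols, pooled total RNA was labelled with Cy3 and hybridised to one-colour Agilent arrays. Per the file headers, the authors extracted background-subtracted, detrended spot intensity with Feature Extraction 11.0.1.1. The deposited value table holds log2 values of that intensity, unscaled between arrays, for 30574 probes (equal within 1e-06 to the scanner values for all 30195 probes with 1 spot), with column medians of 9.39 at WT day 40 and 9.82 in WT untreated cells, and the submitters' processing notes name R 2.15.1.

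From the 62976 scanner spots per array, 59305 non-control spots were kept, outlier spots removed (163 at day 40, 141 untreated, none saturated), and repeats averaged to 55681 probes. Log2 intensity was lowered by the array's 75th percentile. Of these probes, 27509 matched 1 symbol through RefSeq accessions (GRCm38.p6), and the brightest probe stood for its gene. A gene had to be well above background on at least 1 of the 2 arrays, and 4255 genes had several probes. With 1 array per group nothing was tested, and the small number of arrays limits the precision. Higher and lower mean 2-fold apart (1 on the log2 scale).

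Named genes are the 15 with the largest difference each way (same sign on all probes, no clone or predicted names), and of each list the first 4 members plus up to 4 with the largest differences, plus Ccr2 and Ptprc. Ltbp1, Ltbp3, Ltbp4, Krt13, Krt15, Icam2, Gzmb, Nkg7, Prf1, Cd2, Col4a3, Col4a4 and Col17a1 were added after their values were seen. So were Kit, Ccr3, Il5ra, Pcna, Mcm2, Mcm3, Cdt1, Rrm2, Tk1, Bub1 and Cenpa. Genes, lists and members were chosen with earlier results of these data known. Values of lists and named genes under scalings that move all genes by more than 0.1 (log2) are taken relative to that shift. Alternatives were other scalings (median, quantile, spike-ins, probes above background on all 6 arrays), other filters, the mean of probes, outlier spots kept, the authors' deposited table, and normexp (limma 3.58.1, R 4.3.3, offset 50) on median spot signals, since mean spot signals were not used here. Other steps used Python 3.11.15, pandas 2.3.3 and numpy 2.4.6. The calculation was tested on simulated data. Some genes picked by the naming rule are not reported here.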

Additional observations from a re-analysis of the deposited data

Results flagged for a closer look

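Named genes 2-fold apart in opposite directions in the 2 genotypes (day 40 minus untreated) were picked out. So were lists whose medians had opposite signs and a size of 0.5 or more in both genotypes. None of these differences was tested. The alveolar macrophage list had a median of -0.65 in WT and 1.26 in Ccr2KO cells. Other opposite lists, such as p53 targets (0.61 and -0.16) and dendritic cells (-0.51 and 0.05), did not reach that size in both. Marco differed by -3.20 in WT and 2.64 in Ccr2KO cells, and Chil3 by -2.90 and 1.54. The lipid droplet gene Cidec differed by -6.26 in WT and 2.60 in Ccr2KO cells, and was not well above background at WT day 40 or in untreated Ccr2KO cells. Ccr2 differed by -1.78 in WT cells and by 1.43 in Ccr2KO cells, where its levels of -5.07, -1.51 and -3.64 on days 0, 28 and 40 come from a targeted gene, with the probe's place relative to the deletion not given in the sources used here. Folr2, a folate receptor of resident macrophages, differed by -1.59 in WT and 2.43 in Ccr2KO cells, and was likewise dim at WT day 40 and in untreated Ccr2KO cells. By the rule for dim genes, Folr2 was only at least 1.02-fold lower in WT cells, so its WT difference may be small. Gdf15 differed by 2.53 in WT and -1.14 in Ccr2KO cells. The chemokine gene Ccl22 differed by -2.03 in WT and 1.72 in Ccr2KO cells, with low levels of -7.13 at WT day 40 and -5.10 in untreated WT cells. Untreated arrays differed for several of these: Marco stood at 0.60 in untreated WT and -2.75 in untreated Ccr2KO cells, and Gdf15 at 1.90 and 4.98.

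Outside the named genes, 28172 probes had no RefSeq gene here, 15161 of them well above background on at least 1 of the 2 arrays. Of these, 483 were at least 4-fold higher and 518 at least 4-fold lower at day 40 than in untreated cells.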

How the results depend on the processing

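No paired analysis was possible because each group had 1 array. Of 48 recomputed counts 36 stayed within 1.5 times and 618 of 636 recomputed list medians stayed close to their value. These 618 include the 53 medians under spike-in scaling, which could not move because its shift of all genes was taken out first. No gene or list median past the 2-fold line changed sign, but the mast cell median of 0.32 turned negative under 3 alternatives given here. With normexp, 494 genes were 2-fold lower, and 190 and 45 were 4-fold higher and lower. The medians were then -0.87 for platelets, 0.81 for lymphatic endothelium, -0.32 for cardiac muscle, -0.15 for B and plasma cells and -0.10 for dendritic cells. With genes above background on both arrays, 680 were 2-fold lower and 254 and 79 were 4-fold higher and lower, since fewer genes enter. Matrix proteases then had 0.84, alveolar macrophages -0.99 and mast cells -0.22. The mean of probes gave 0.94 for basal epithelium, 1.54 for mucous cells and 1.63 for neutrophil chemokines. The authors' deposited table without scaling, which lowers all genes by 0.43, had 513 genes 2-fold higher, 1743 lower and 151 4-fold higher. Relative to that shift the medians were 0.74 for matrix proteases, 0.89 for basal epithelium, -0.99 for alveolar macrophages and -0.29 for mast cells. Lowered by its 75th percentile, the table had 705 genes 2-fold lower and 237 and 76 4-fold higher and lower, with 0.69, -1.03 and -0.33 for matrix proteases, alveolar macrophages and mast cells. The share of 2-fold genes that were higher was 52.7%, against 64.5% with normexp, 38% with spike-ins and 22.7% in the unscaled table. For other moves the cause was not tested. Named genes crossed the 2-fold line in 68 of 4758 recomputations, 35 outward and 33 inward, and 5 more values moved. For spike-in scaling and the unscaled table the shift of all genes was taken out first, so it adds no crossing to these 68. Left in, the spike-in shift of -0.20 would bring genes close to the line across it, such as Mt2 (1.01) inward and Axin2 (-0.999) outward. Pooled RNA on single arrays, the dimmer day 40 array and the slide row limit all values here.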
